A study of Arabidopsis thaliana with 9 samples.

Results

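Peak lists of trimethylated lysine 4 of histone H3 (H3K4me3) from atx1/2 mutant seedlings of Arabidopsis thaliana were set against those of wild-type Col-0. Members were the libraries that the labels give as atx1/2 or Col-0 with the H3K4me3 antibody, which were 4 of 9 samples in the series, 2 per genotype. The series has 6 H3K4me3 libraries in all, with 2 of the mutant jmj28-2, and 3 H3 samples that were not analysed here. The groups differed in the genotype label alone: both were in the Col-0 background, were harvested as whole seedlings at 12 days, and grew on MS medium with 1% sucrose under 16 h of light and 8 h of dark at 23 °C. The labels name no allele for atx1/2 and do not say whether plants were pooled or whether replicate libraries were grown and harvested apart. The p-values therefore cover only the spread between libraries, which may be technical.

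ATX1 and ATX2 encode Trithorax-type SET-domain methyltransferases that act on lysine 4 of histone H3. In plants, H3K4me3 sits over the beginning of transcribed genes, and other enzymes, among them ATXR3, also deposit it. Trithorax proteins are best known in plants for flowers and flowering time. Chromatin immunoprecipitation and sequencing (ChIP-seq) finds such stretches as peaks, places where sequenced fragments bound by the antibody pile up. The comparison asks where H3K4me3 peaks were present, absent or of another length when ATX1 and ATX2 are mutated.

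Each deposited list gives the position of every peak and a score, which was used only to rank peaks within a list. The lists hold no read counts, so depth is unknown, and a peak that was not listed may be weak rather than missing. In bulk seedlings, fewer cells with the mark and less mark per cell cannot be told apart. The overlapping peaks of the 4 lists were merged into 14647 regions on chromosomes 1 to 5, of which 14360 overlapped a protein-coding gene by at least 200 bp. A region was called lost where both Col-0 lists and no atx1/2 list had a peak, and gained where both atx1/2 lists and no Col-0 list had one. Regions with any other incomplete pattern are called mixed.

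The atx1/2 libraries had slightly more and slightly narrower peaks than the Col-0 libraries. Peaks numbered 14492 and 14493 in atx1/2, against 14343 and 14291 in Col-0. Their median width was 1818 and 1812 bp in atx1/2, against 1839 and 1858 bp in Col-0, a difference of -33.5 bp. They covered 29.1 and 29.0 Mb in atx1/2, against 29.3 and 29.5 Mb in Col-0, a difference of -0.327 Mb (-0.562 Mb with equal numbers of peaks and -0.0806 Mb with peaks of score 100 or more). Neither measure overlapped between the genotypes, and the two-sided exact permutation test gave p = 0.333 for each, the smallest that 2 libraries against 2 allow. Peaks over 4000 bp made up 1.83% and 1.77% of the atx1/2 lists, against 2.19% and 2.35% of the Col-0 lists. The median score was 527 and 538 in atx1/2, against 469 and 460 in Col-0, and its part in these differences was not tested.

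**Figure D1:**
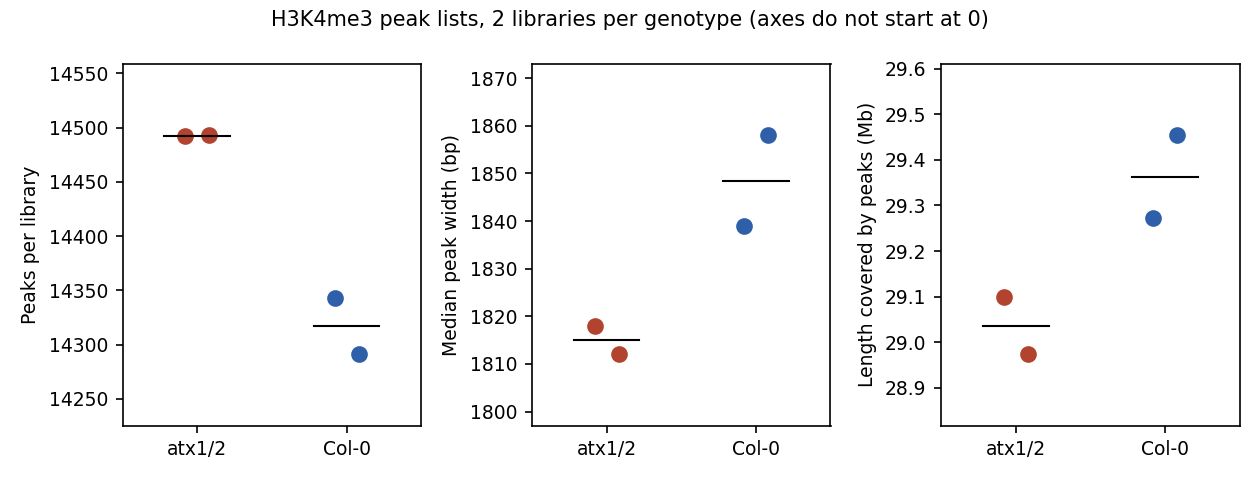
Number of peaks, median peak width in bp and length covered by peaks in Mb for each library of atx1/2 and Col-0; points are libraries, black lines are the means of 2 libraries, and the axes do not start at 0. The atx1/2 libraries had more peaks (14492 and 14493, against 14343 and 14291) of lower median width (1818 and 1812 bp, against 1839 and 1858 bp).

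The narrowing was small at the edges of single peaks. In 9047 regions with 1 peak in every library and 1 gene, the left edge lay a median of 32 and 27 bp outside the stretch common to all 4 peaks in atx1/2, against 32 and 41 bp in Col-0. On the right the distances were 32 and 27 bp in atx1/2, against 31 and 39 bp in Col-0. The genotypes met or overlapped on both sides, and the two-sided exact permutation test gave p = 0.667 on both sides. The gene table has no strand, so left and right are directions on the chromosome, not the start and end of a gene.

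Most of the landscape was shared. A peak was present in all 4 libraries in 13691 regions (93.5%), while 113 regions (0.771%) were lost, 181 (1.24%) were gained and 662 were mixed. For comparison, the 2 atx1/2 libraries disagreed with each other in 339 regions and the 2 Col-0 libraries in 406. When each list was cut to its 14291 top-scoring peaks, 104 of the 113 lost regions were again lost, and 103 of the 181 gained regions were again gained. Merging these shorter lists anew gave 152 lost and 112 gained regions, so the excess of gained over lost regions turned round with the number of peaks per list.

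**Figure D2:**
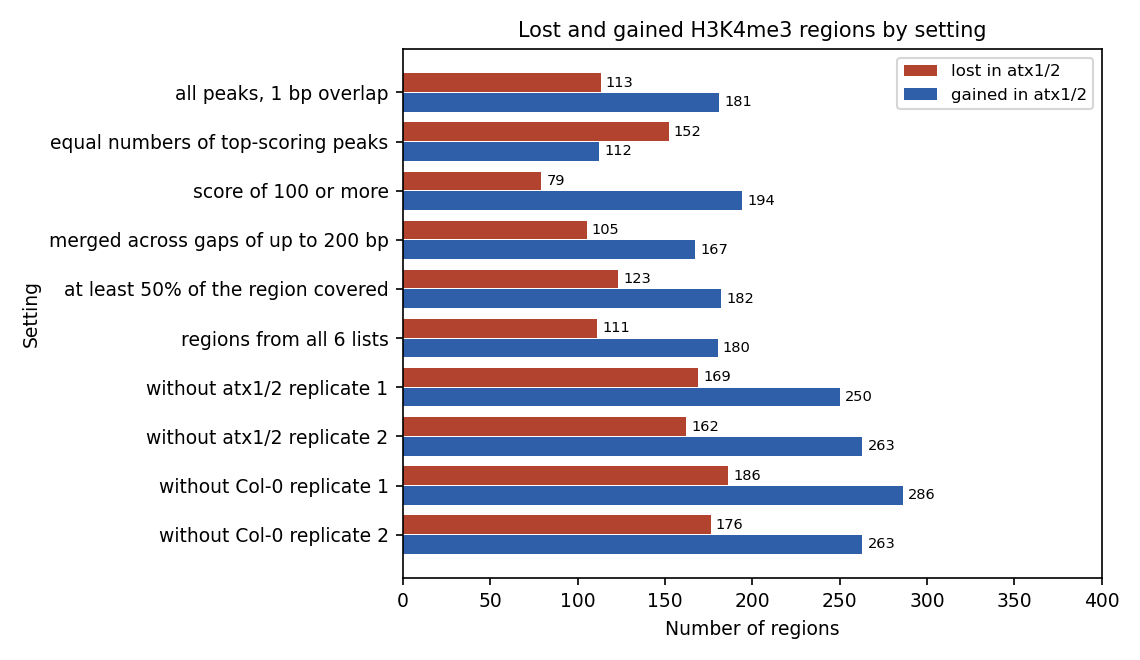
Number of H3K4me3 regions lost (red) and gained (blue) in atx1/2 relative to Col-0 under each setting; bars start at 0. Gained regions outnumber lost ones in every setting drawn except with equal numbers of top-scoring peaks, where 152 were lost and 112 gained.

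Lost and gained regions held short, low-scoring peaks. The median length was 1522.5 bp in lost and 1296.5 bp in gained regions, against 1850 bp where every library had a peak. Ranked by score within the lists concerned, their peaks had a median percentile of 3.44 for lost and 2.83 for gained regions. Both scores reached 100 in 4 lost and in 4 gained regions. A protein-coding gene was missing from 6.19% of lost and 11.6% of gained regions, against 1.59% of regions with a peak in all 4. Lost regions made up between 0.467% (chromosome 5) and 1.06% (chromosome 1) of the regions of a chromosome, and gained regions between 0.818% (chromosome 5) and 1.52% (chromosome 2).

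Genes that act in mitosis and in building the cell plate were among those without a peak in atx1/2. Plant cells divide by growing a new wall outward along a microtubule array, the phragmoplast, and many of the genes needed are transcribed shortly before mitosis under MYB3R transcription factors. Of 20 genes in the mitosis and cytokinesis list, 19 had a region. These comprised 5 in lost regions, 5 in mixed regions and 9 with a peak in every library, against 0.646% of all 17637 genes with a region that lay in lost and 3.52% in mixed regions. CSLD5 and PLE were put in the list because earlier results had shown them lost, and without them 3 of 17 members with a region were lost. The list itself was also chosen with earlier results of these data known, so neither share is independent of them.

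CSLD5 encodes a cellulose synthase-like protein needed for the cell plate (chromosome 1, 594603 to 598918; positions are those of TAIR10 throughout). It had no peak in either atx1/2 library, 4316 and 4113 bp of peak in jmj28-2, and 4292 and 4246 bp in Col-0. PLE encodes MAP65-3, which bundles the microtubules of the phragmoplast. Its region (chromosome 5, 20960858 to 20964767) had no peak in atx1/2, 1853 and 1547 bp in jmj28-2, against 1933 and 3880 bp in Col-0. The peaks of these genes were thus missing in atx1/2 and listed in all 4 libraries of the other genotypes.

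CDKB2;1, a plant-specific cyclin-dependent kinase of the G2 to M transition, had no peak in atx1/2 or jmj28-2, against 1794 and 1852 bp in Col-0. CDKB1;1, of the same kinase class, had none in atx1/2, 0 and 1361 bp in jmj28-2, against 1658 and 1265 bp in Col-0. MYB3R-4, a transcriptional activator of mitotic genes, had none in atx1/2 or jmj28-2, against 1440 and 1397 bp in Col-0. Scores of these peaks were low: for the 5 lost members the lower of the Col-0 scores lay between 24.2 (MYB3R-4) and 64.48 (CSLD5), where lists begin near 20. All 5 were again lost with equal numbers of peaks, while at a score of 100 or more none of these 5 met the definition.

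All 5 mixed members had a peak in Col-0 replicate 2 and none in Col-0 replicate 1. SYP111, the cytokinetic syntaxin KNOLLE, had no peak in atx1/2, 1472 and 0 bp in jmj28-2, against 0 and 1648 bp in Col-0. CDKB1;2 had a peak of 1256 bp and CDC20.1, an activator of the anaphase-promoting complex, one of 1054 bp, both in Col-0 replicate 2 alone. CYCB1;1, a mitotic cyclin, had 0 and 1751 bp in atx1/2, none in jmj28-2, and 0 and 1894 bp in Col-0. AUR1, an Aurora kinase, went the other way, with 1863 and 1897 bp in atx1/2, 1996 and 1876 bp in jmj28-2, against 0 and 2009 bp in Col-0. Over the list, 8 members had a peak in more Col-0 than atx1/2 libraries and 1 had the reverse. Without Col-0 replicate 1 the lost members numbered 8.

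**Figure D3:**
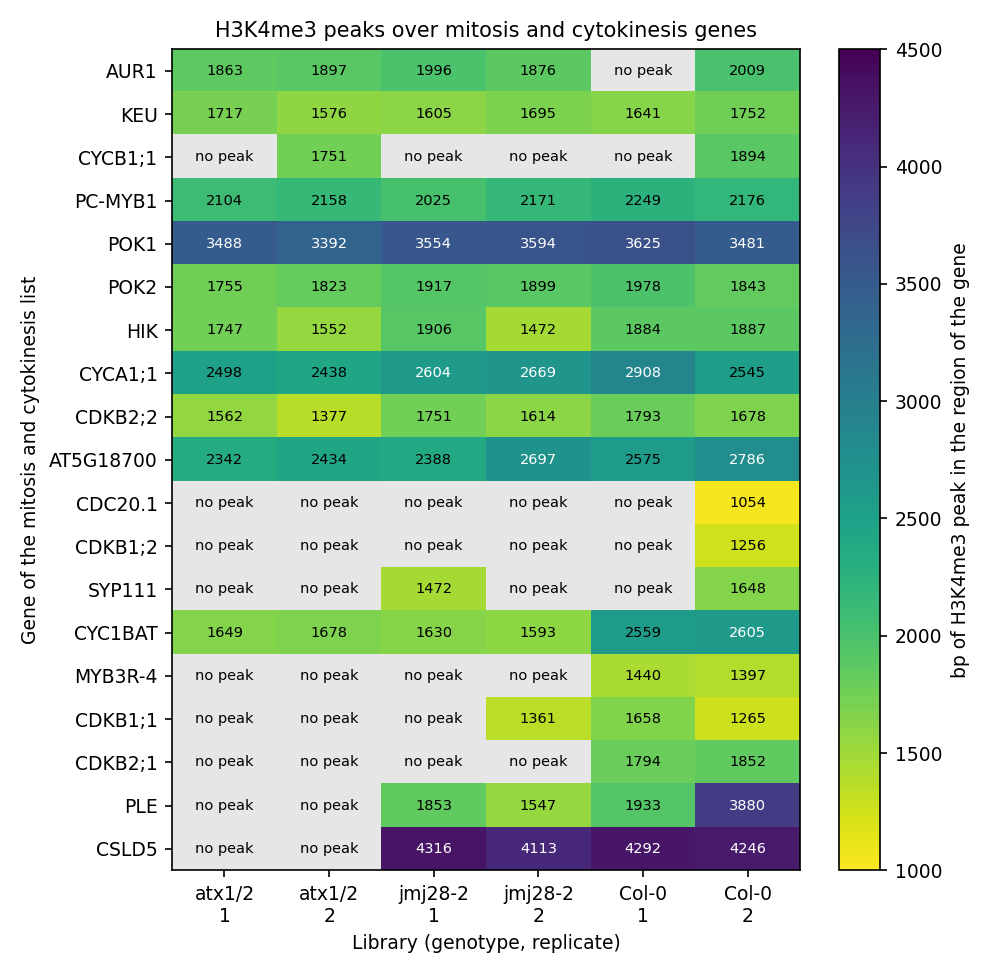
Base pairs of H3K4me3 peak in the region of each gene of the mitosis and cytokinesis list, by library, with atx1/2, jmj28-2 and Col-0 from left to right and grey cells where no peak was listed. CSLD5 has no peak in atx1/2, against 4292 and 4246 bp in Col-0, and AUR1 is the gene with more peaks listed in atx1/2 than in Col-0.

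All 9 members with a peak in every library were shorter in atx1/2, with a median log2 change in length of -0.14 against -0.01 over all 13691 such regions. Of these, 1 passed the test of length described below, the region that CYC1BAT (cyclin CYCB1;2) shares with SNX1. Over the body of the cyclin gene alone it had 684 and 713 bp of peak in atx1/2, 687 and 690 bp in jmj28-2, against 1617 and 1620 bp in Col-0. The body of the sorting nexin gene SNX1 had 1633 and 1553 bp in atx1/2, against 1651 and 1630 bp in Col-0. The whole region had 1649 and 1678 bp in atx1/2, against 2559 and 2605 bp in Col-0. The bp over the gene bodies exceed that when put together, so they are not separate parts of the region. The other 8 did not pass. HIK, a kinesin of the phragmoplast, had 1747 and 1552 bp in atx1/2, against 1884 and 1887 bp in Col-0 (limma adjusted p = 0.748, shorter in 4 of 4 pairs of libraries).

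Other cell-cycle lists were drawn up after values had been seen, and stand beside 0.646% lost and 0.902% gained over all genes with a region. Of 16 A- and B-type cyclins with a region, 1 was lost, CYCB1;5, and CYC1BAT was shortened. The CYCB1;5 body had no bp of peak in atx1/2 or jmj28-2 and 663 and 687 bp in Col-0. Of 13 cyclin-dependent kinases, 2 were lost, the CDKB genes above. Among 20 core histone genes with a region, 1 was lost. It was HTA8, a gene of the H2A.Z variant family, with no peak in atx1/2, 1139 and 1229 bp in jmj28-2, against 1237 and 1179 bp in Col-0. Of 19 replication licensing genes 1 was gained. This was ORC2, an origin recognition complex subunit, with 2046 and 2020 bp in atx1/2, 1892 and 2020 bp in jmj28-2, and none in Col-0; it was not called with equal numbers of peaks.

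The lost regions with high-ranking peaks and a gene symbol included those of AGD1, CSLD5, Tic32-IVa, SK4, AAE18 and ABCC11. AGD1 encodes a GTPase-activating protein for ARF GTPases (chromosome 5, 24893791 to 24895463) and had no peak in atx1/2, 1402 and 1554 bp in jmj28-2, against 1673 and 1559 bp in Col-0. Tic32-IVa, of chloroplast protein import, had 1600 and 1522 bp in jmj28-2, against 1369 and 1652 bp in Col-0. SK4, an SKP1-like subunit of ubiquitin ligases, AAE18, an acyl-activating enzyme whose region also holds SCL33, and the ABC transporter gene ABCC11 had no peak in either mutant. In Col-0 these 3 had between 1145 bp (ABCC11, replicate 1) and 2089 bp (AAE18, replicate 2). Peaks of the 2 highest-ranking lost regions without a protein-coding gene lay on chromosome 5 (14652932 to 14654526, over a transcribed pseudogene) and chromosome 4 (6995608 to 6996778). AT1G29740, chosen after its values were seen, stood apart in score, at percentile 42.4 of the Col-0 lists. It had no peak in atx1/2 or jmj28-2 and 1909 and 1941 bp in Col-0 (chromosome 1, 10406712 to 10408652), and was lost at a score of 100 or more as well.

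Lost members of other lists are set against the 0.646% of all genes with a region that lay in lost regions. Of 35 receptor-like protein genes with a region, RLP23 and RLP38 were lost, and neither had a peak in jmj28-2. CRK26 was the 1 lost gene of 22 cysteine-rich receptor-like kinases with a region. A peak of 1521 and 1524 bp in Col-0 was absent from both mutants there. Over the whole gene body, which reaches into another region, CRK26 had 1164 and 1204 bp in atx1/2, 1196 and 1247 bp in jmj28-2, against 2503 and 2488 bp in Col-0. KCS3, a fatty acid elongase gene, was 1 lost of 10 in its family and AHL22, an AT-hook gene, 1 lost of 3, and both kept 2 peaks in jmj28-2. CSLD5 was the 1 lost of 21 genes of the cellulose synthase superfamily.

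Gained regions included genes of hormone metabolism. GA3OX1, which makes bioactive gibberellin, had 1400 and 1390 bp of peak in atx1/2, 1390 and 1351 bp in jmj28-2, and none in Col-0 (chromosome 1, 5345074 to 5346475). ATGA2OX1, which inactivates gibberellins, had 1517 and 1506 bp in atx1/2 and none in jmj28-2 or Col-0. The region of CKX4, a cytokinin oxidase gene, had 1445 and 1306 bp in atx1/2 and none in jmj28-2 or Col-0. A neighbouring peak reached the gene in every library, so that its body had 1474 and 1356 bp in atx1/2, 137 and 80 bp in jmj28-2, against 88 and 101 bp in Col-0. Against 0.902% of all genes with a region, 2 of 10 gibberellin genes, 1 of 35 cytokinin genes and 1 of 11 auxin synthesis and transport genes lay in gained regions, in lists drawn up after values had been seen. The auxin gene was TAR2, an aminotransferase of auxin synthesis, with 1716 and 1770 bp in atx1/2, 0 and 1469 bp in jmj28-2, and none in Col-0, and it was not called with equal numbers of peaks. IAA19, an auxin-response repressor, was gained among 29 Aux/IAA and ARF genes with a region, with 1201 and 1189 bp in atx1/2, 1065 and 1091 bp in jmj28-2, and none in Col-0.

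Further gained members stand beside the same share of 0.902% over all genes with a region. HWI1 encodes a plasmodesmal protein (chromosome 1, 26651682 to 26653110) and had 1429 and 1375 bp in atx1/2, 1261 and 1341 bp in jmj28-2, and none in Col-0. WRKY54, a defence and senescence transcription factor gene, had 1434 and 1492 bp in atx1/2, 1029 and 1205 bp in jmj28-2, and none in Col-0. EXPA14, an expansin gene and 1 gained of 29 xyloglucan hydrolase and expansin genes, had 1658 and 1495 bp in atx1/2 and none in jmj28-2 or Col-0. Of 13 pectin methylesterase genes with a region 2 were gained, ATPMEPCRC with 2943 and 2978 bp and PME2 with 2484 and 2509 bp in atx1/2. In jmj28-2 ATPMEPCRC had 2902 and 2779 bp. The PME2 body had 2367 and 2319 bp in atx1/2 and 1340 and 1318 bp in jmj28-2. Of 93 cytochrome P450 genes with a region 5 were gained, among them CYP90D1 (1385 and 1395 bp in atx1/2) of brassinosteroid synthesis and CYP72C1 (1245 and 1433 bp) of brassinosteroid inactivation. The CYP90D1 body had 1162 and 1142 bp of peak in atx1/2 and 1162 and 1129 bp in jmj28-2. The CYP72C1 body had 1079 and 1235 bp in atx1/2 and none in jmj28-2. With equal numbers of peaks the calls of PME2, CYP90D1 and CYP72C1 were not made. HCD1 and OCT6, an organic cation transporter gene, complete the 8 gained regions with a symbol and the highest-ranking peaks, with 1479 and 1466 bp and 1763 and 1878 bp in atx1/2. In jmj28-2 HCD1 had 1540 and 0 bp and OCT6 0 and 1568 bp. The 2 highest-ranking gained regions without a protein-coding gene lay on chromosome 2 (4870897 to 4872104, over 2 annotated lncRNAs) and chromosome 4 (1756234 to 1757432, over a ncRNA). AT3G45430, a lectin receptor kinase gene chosen after its values were seen, had the highest score percentile of all gained regions, 13.9, with 1998 and 1805 bp in atx1/2, 1985 and 1806 bp in jmj28-2, and none in Col-0.

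Changes in length were tested where every library had a peak (13691 regions), with limma on log2(bp of peak) and Benjamini-Hochberg adjustment over all of them at a threshold of 0.05. The test called 37 regions shortened (0.27%) and 16 lengthened (0.117%), 0.387% in all, and each call had the same sign in 4 of 4 pairs of libraries. The median log2 change was -0.01, 58.9% of regions were shorter in atx1/2, and 97.9% lay within 20% of their Col-0 length. An unadjusted p under 0.05 was reached by 876 regions (6.40%). All 37 and 16 calls were lost without atx1/2 replicate 1, and 11 and 2 were made without atx1/2 replicate 2.

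**Figure D4:**
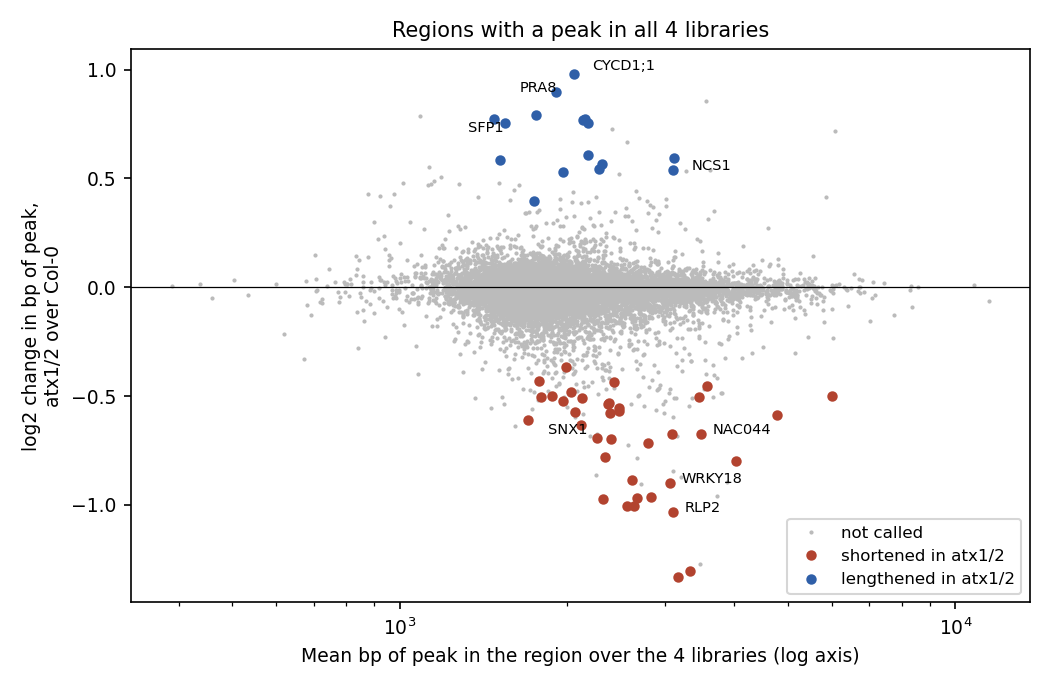
Change in length of H3K4me3 peaks (log2 bp, atx1/2 over Col-0) against the mean bp of peak (log axis) for the 13691 regions in which every library had a peak. Grey points were not called, and red and blue points are the 37 shortened and 16 lengthened regions. The median change over all regions drawn is -0.01. Some uncalled regions changed as much as called ones, down to -0.96 among core histone genes and up to 0.86 among receptor-like protein genes.

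In most called regions a single edge had moved. Shortened regions had a median of 1840 bp of peak in atx1/2, against 2974.5 bp in Col-0, and 30 of 37 had one edge moved by 500 bp or more with the other moved by less than 200 bp. Lengthened regions had a median of 2666.75 bp in atx1/2, against 1586.75 bp in Col-0, and 15 of 16 had a single moved edge. In ABCB4, an auxin transporter gene chosen after its values were seen, the outer edges moved by 2.5 and -7.5 bp while the bp of peak were 3724 and 3928 in atx1/2, against 5715 and 5770 in Col-0. A region held 2 or more genes in 29 of 37 shortened and 9 of 16 lengthened calls, against 32.1% of all tested regions. A region spans the longest of its merged peaks, so long ones cover more genes, and the shares were not matched for length. Of 108 genes that lost all peak over their body, 8 lay in called regions and 97 in lost ones. Examples chosen after their values were seen are LYK2, a LysM receptor-like kinase gene (no bp in atx1/2, 1640 and 0 bp in jmj28-2, 2067 and 2067 bp in Col-0), and LRL3, a root hair transcription factor gene (no bp in atx1/2 or jmj28-2, 1087 and 941 bp in Col-0).

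RLP2, a receptor-like protein gene, shares with AT1G17230 and RTFL11 a region on chromosome 1 (5894807 to 5899048). It had 1970 and 2099 bp of peak in atx1/2, 4080 and 4074 bp in jmj28-2, against 4092 and 4237 bp in Col-0. The log2 change was -1.03 ± 0.049 (SE; limma adjusted p = 0.0108, shorter in 4 of 4 pairs). In Col-0 replicate 1 and both jmj28-2 libraries the region held a pair of adjacent peaks, and atx1/2 had no peak at the place of the right one. Over the RLP2 body atx1/2 kept 473 and 700 bp, against 2397 and 2547 bp in Col-0. ATHSRP54A, a subunit of the signal recognition particle, had no peak over its body in atx1/2, against 2468 and 2549 bp in Col-0. That body spans a shortened region and a separate lost one (chromosome 1, 5270950 to 5272444), which had no peak in atx1/2, 1409 and 1352 bp in jmj28-2, against 1430 and 1480 bp in Col-0. The shortened region had 2006 and 1845 bp in atx1/2, 3352 and 2992 bp in jmj28-2, against 3776 and 3728 bp in Col-0. NAC044, a NAC transcription factor gene of the DNA damage response, shares its region with CDC48C and had 2812 and 2563 bp in atx1/2, 4200 and 4095 bp in jmj28-2, against 4202 and 4363 bp in Col-0.

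The WRKY18 and VPS54 regions were of similar length in both mutants. WRKY18, a defence transcription factor gene, had 2085 and 2184 bp over its region in atx1/2, 2049 and 2058 bp in jmj28-2, against 4147 and 3831 bp in Col-0, but the missing stretch lay over its neighbour AT4G31805. The VPS54 region, over a subunit of the GARP tethering complex, had 2088 and 2140 bp in atx1/2, 2130 and 2173 bp in jmj28-2, against 3295 and 3651 bp in Col-0. It also holds AT4G19470, AT4G19480 and AT4G19485. Over the VPS54 body alone atx1/2 had 1672 and 1757 bp, against 2042 and 1792 bp in Col-0. TPR14, sharing its region with PLAT3, had 1649 and 1759 bp in atx1/2, 1678 and 2276 bp in jmj28-2, against 3556 and 3281 bp in Col-0. CHR40, a chromatin remodeller of the CLASSY family, had 1342 and 1356 bp in atx1/2, 1388 and 0 bp in jmj28-2, against 1994 and 2123 bp in Col-0. With equal numbers of peaks CHR40 no longer had a peak in all 4 libraries and could not be tested.

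CYCD1;1, a D-type cyclin gene of cell-cycle entry, had the largest lengthening (chromosome 1, 26439435 to 26442220). It had 2786 and 2674 bp in atx1/2, 2745 and 2786 bp in jmj28-2, against 1380 and 1391 bp in Col-0, a log2 change of 0.98 ± 0.041 (SE; limma adjusted p = 0.0108, longer in 4 of 4 pairs). The other 7 D-type cyclin genes with a region were not called. PRA8, of the prenylated RAB acceptor family, had 2577 and 2406 bp in atx1/2, 1438 and 1351 bp in jmj28-2, against 1396 and 1281 bp in Col-0. SFP1, a sugar transporter-like gene, had 1950 and 1929 bp in atx1/2, 1436 and 1200 bp in jmj28-2, against 1123 and 1180 bp in Col-0. HB2, a hemoglobin gene, RAB7B, a RAB GTPase gene, NCS1, a nucleobase transporter gene, and CuAO1, a copper amine oxidase gene, named the other lengthened regions whose gene of largest overlap has a symbol, with log2 changes of 0.59, 0.54, 0.54 and 0.40. Over the NCS1 body every library had 2134 bp, so the added stretch lay outside that gene. The RAB7B body had 1572 and 1363 bp in atx1/2, against 1455 and 1410 bp in Col-0. Over the bodies of HB2 and CuAO1 both atx1/2 libraries had more bp than both Col-0 libraries. HB2 peaks scored low, at 48.58 and 70.33 in atx1/2, against 22.57 and 30.54 in Col-0, and had 1884 and 0 bp in jmj28-2. MES16 shares a lengthened region with AT4G16695, which overlaps it more. That region had 2691 and 2707 bp in atx1/2, 2667 and 2728 bp in jmj28-2, against 1525 and 1642 bp in Col-0.

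**Figure D5:**
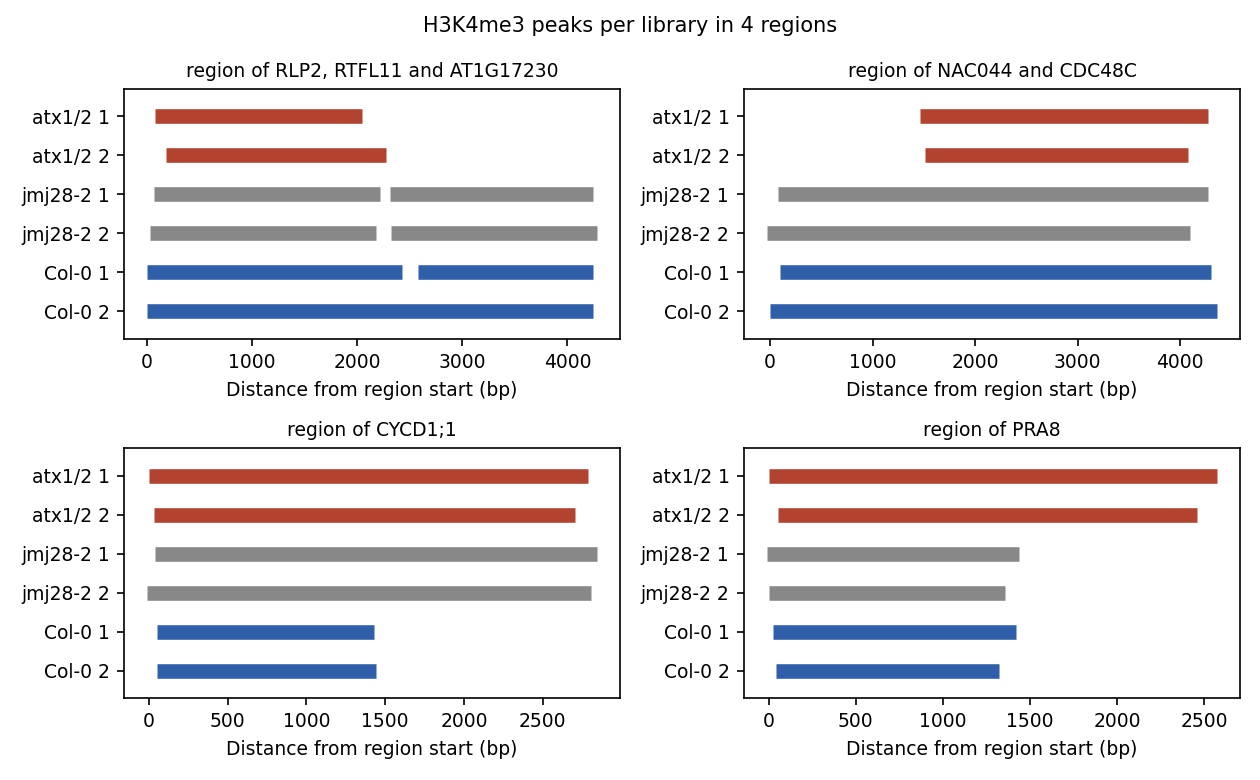
Peaks of the 6 libraries in 4 regions, with distance from the start of the region in bp on the x axis and atx1/2 (red), jmj28-2 (grey) and Col-0 (blue) from top to bottom. The RLP2 and NAC044 regions hold fewer bp of peak in atx1/2 alone, the CYCD1;1 peak is longer in both mutants, and the PRA8 peak is longer in atx1/2 alone.

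The comparison of either mutant with Col-0 uses the same Col-0 libraries, so atx1/2 was also tested directly against jmj28-2 in a fit of all 6 libraries over 13525 regions with a peak in each. In that contrast 11 regions were shorter and 13 longer in atx1/2 (limma, adjusted p threshold 0.05). Of 36 shortened regions in this fit, 11 were among those shorter than in jmj28-2, and of 15 lengthened regions 7 were among those longer. Both comparisons use the same atx1/2 libraries, so this overlap is not independent support for the calls. The regions named next were picked by their change against Col-0, so their p-values here are not independent of that choice. RLP2 differed by -1.004 on the log2 scale (limma adjusted p = 0.00237), NAC044 by -0.63 (0.0185) and PRA8 by 0.84 (0.0105), each in 4 of 4 pairs. For WRKY18, VPS54 and CYCD1;1 the differences were 0.06, -0.03 and -0.02 and did not pass. Among lost regions, jmj28-2 had a peak in both libraries in 39, in 1 library in 24 and in none in 50. Among gained regions these numbers were 47, 51 and 83.

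ATX1, ATX2, FLC and CO lay in regions with a peak in each of the 4 libraries. ATX1 had 1866 and 1838 bp of peak in atx1/2, against 2002 and 1905 bp in Col-0 (log2 change -0.08, limma adjusted p = 0.80, shorter in 4 of 4 pairs). The ATX2 region, shared with SPPL5, had 2049 and 2044 bp in atx1/2, against 2083 and 2123 bp in Col-0 (-0.04, adjusted p = 0.865). Peaks say nothing of the coding sequence below them, so these values are no check of the genotype. FLC, the floral repressor, had 1233 and 1298 bp in atx1/2, against 1326 and 1343 bp in Col-0 (-0.08, adjusted p = 0.80), and the region of CO and bZIP3 had 2458 and 2563 bp, against 2593 and 2577 bp (-0.04, adjusted p = 0.865). FT, the florigen gene, had no peak in any of the 4 libraries. LFY, a floral meristem regulator, had the largest change of the flowering list, with 1637 and 1255 bp in atx1/2, against 2032 and 1947 bp in Col-0 (-0.47, adjusted p = 0.670).

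No member was lost, gained or called in several lists. They were 10 of 10 H3K4 methyltransferase and COMPASS genes with a peak in all 4 libraries, 7 of them shorter (median log2 -0.03), and 8 H3K4 demethylase genes of which 7 were shorter (median -0.05). Over all regions, 93.5% had a peak in all 4 libraries, 0.771% were lost and 1.24% gained. Of tested regions 0.387% were called and 58.9% were shorter. At such shares a list this small can hold no call, and no list was tested against them. In the flowering list 20 of 32 genes had a region and 19 a peak in all 4 libraries, and for reported targets of ATX1 the numbers were 8 of 12 and 7. Outside the flowering list, and chosen after their values were seen, the floral MADS-box gene SEP4 was gained (1359 and 1256 bp in atx1/2, 1237 and 1278 bp in jmj28-2, none in Col-0). PAN, a bZIP gene of floral organ number, was lost (no peak in atx1/2, 1637 and 1561 bp in Col-0). All 35 cytosolic ribosomal protein genes and 10 of 12 light-harvesting genes with a region had a peak in all 4, where near-identical copies can share reads. Among WRKY genes, 1 of 35 was gained and 1 shortened, as above. A p that misses the threshold does not show that lengths were equal.

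Of the markers that check the tissue, RBCS1A (mesophyll) and SUC2 (phloem) had a peak in all 4 libraries. CAB1, LHCB2.1 and SPCH, the stomatal lineage gene, had a mixed pattern, SPCH with 1865 and 0 bp in atx1/2 and none in Col-0. CAB2, MUTE, FMA, APL and all genes of the xylem (2), root hair (2), shoot meristem (3), seed storage (3) and pollen (2) lists had no region. With no region on any meristem marker, the share of dividing cells in each library was not measured, and its part in the mitosis list was not tested.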

How the data were processed

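Arabidopsis H3K4me3 peak lists from 2 atx1/2 and 2 Col-0 libraries (and 2 of jmj28-2) were analysed. The authors deposited, for each library, peak positions and a score per peak; peaks were called in each library by itself. Bowtie2 2.2.8, MACS 1.4, ChIPseeker, deepTools 2.4.1 and TAIR10 are named per the submitters' processing notes, without roles, and the control used for calling is not given in the sources used here. Depth is unknown, so no counting interval is given. The score, deposited by the authors, only ranked or filtered peaks.

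Peaks on chromosomes 1 to 5 sharing at least 1 bp were merged, and bp of peak were summed per region. Length was tested with limma 3.58.1 (R 4.3.3) in the 4 libraries, without a pseudocount, since only regions with a peak in each were fitted (2 residual degrees of freedom). Exact permutation tests used scipy 1.17.1, tables numpy 2.4.6 and pandas 2.3.3 under Python 3.11.15. The limma step was tested on simulated data. Alternatives were equal numbers of peaks, a score of 100, gaps of 200 bp, 50% cover, all 6 lists or libraries, pseudocounts of 50 and 200 bp, trend, centring, replicate block, gene bodies and leaving out each library.

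Genes came from a RefSeq table of TAIR10.1 without strand (27432 protein-coding genes, overlap of at least 200 bp); peaks in 115 of 116 windows of 1000 kb fitted it best with a shift of 500 bp or less. Measures around start sites were not made. ATX1, ATX2, FLC, FT and CO are always given; others are up to 8 per direction with a symbol (lost and gained by score rank, called by change), 2 per direction without gene and up to 4 per list. Members and lists were chosen with earlier results of these data known, and 7 of 33 lists after values were seen. Some regions that this rule names are not reported here.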

Additional observations from a re-analysis of the deposited data

How the results depend on the processing

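Lost and gained counts stayed within 1.5 times of 113 and 181 in every setting that kept all 4 libraries, except that gained regions fell to 112 with equal numbers of top-scoring peaks. Leaving out 1 library gave 162 to 186 lost and 250 to 286 gained regions, since 1 library then stands for its genotype. Shortened and lengthened regions numbered 156 and 198 with a pseudocount of 200 bp and a peak in at least 2 libraries, and 155 and 197 with 50 bp. These pseudocount fits also took in the lost and gained regions, so their counts are not of changed lengths alone. In a lost or gained region the genotype without a peak has no spread, so its p can be too small. The counts were 5 and 3 over gene bodies, and lengthened regions numbered 25 with merging across gaps of 200 bp. Leaving out 1 library gave 0 to 59 shortened and 0 to 30 lengthened. Without atx1/2 replicate 1 limma called 0 and 0, with 535 shorter and 232 longer at an unadjusted p under 0.05, and without atx1/2 replicate 2 it called 11 and 2. Peak lengths of same-numbered libraries did not deviate together (r = 0.0071 across 13691 regions). This cannot settle whether they were grown or processed together, which the labels do not tell. With a replicate block limma called 0 and 0, with 631 shorter and 193 longer at an unadjusted p under 0.05. Differences in median width ran from -43 to -24 bp and in covered length from -0.418 to -0.237 Mb when 1 library was left out, and were -29 bp and -0.562 Mb with equal numbers of peaks. The median log2 change turned to 0.01 with libraries centred on their medians (0.0088). At a score of 100 or more, only HWI1 and EXPA14 were still called among the 8 lost and 8 gained regions named by rank. AGD1, CSLD5, Tic32-IVa and WRKY54 were among those that were not. With 6 libraries in the fit TPR14 (limma adjusted p = 0.107) and CuAO1 (0.0826) were no longer called. Depth being unknown, weak peaks may be missed in either genotype.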

Other observations

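Genes of microRNAs, small RNAs that repress target messages, were looked at after 2 of them had appeared in gained regions. Of 326 microRNA genes in the table, 81 had peak over the gene in all 4 libraries, 4 in atx1/2 only, 2 in Col-0 only, 12 in another pattern and 227 in none. Among protein-coding genes with a region, 0.902% lay in gained and 0.646% in lost regions. MIR160a, whose product acts on auxin response factor messages, had its 85 bp covered in both atx1/2 and both jmj28-2 libraries and in neither Col-0 library. The peak around it (chromosome 2, 16339607 to 16341196) measured 1486 and 1554 bp in atx1/2 and was gained with equal numbers of peaks too. MIR393b, whose product acts on auxin receptor messages, had 160 bp covered in both atx1/2 libraries, 160 and 0 bp in jmj28-2 and none in Col-0, but its region (chromosome 3, 20691262 to 20692975) was not called with equal numbers of peaks. MIR823 (191 and 191 bp in atx1/2) and MIR822 (275 and 337 bp) were covered where the peaks of PRA8 and NCS1 reached further in atx1/2, and neither was covered in jmj28-2 or Col-0. MIR398a was not covered in atx1/2, with 40 bp covered in each jmj28-2 library, against 50 and 13 bp in Col-0. MIR166c was not covered in atx1/2 either, with 139 and 7 bp in jmj28-2, against 139 and 46 bp in Col-0. These genes are short against a peak, so a few bp at an edge decide such a value.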
